A study of Mus musculus with 24 samples.

Results

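The interferon-stimulated genes described here are 40 named mouse genes, listed by symbol and matched to their Ensembl identifiers among the 49585 gene identifiers of the deposited count tables. All 40 symbols were found, and all 40 passed the low-count filter in every comparison below. The list was made from gene names and not from measured levels, but it was drawn up with earlier results of these data known. By role it holds 4 IFIT genes, 2 Mx genes, 5 oligoadenylate synthetase (OAS) genes, 4 transcription factors, 3 genes of the Isg15 pathway, 4 sensors of nucleic acids, 5 guanylate-binding proteins (GBPs), 3 immunity-related GTPases and 10 other effectors.

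RNA was sequenced from whole fat pads of male mice on a C57BL/6J background, in 24 libraries and 6 groups. The diet experiment used wild-type mice fed for 20 weeks with food in which fat supplied 10% of the energy (low-fat, 4 libraries) or 60% (high-fat, 4 libraries), and sampled subcutaneous adipose tissue (SAT). The knockout experiment used mice labelled Azin2-/- and wild-type littermates, all fed the 60% fat diet for 8 weeks, so its control mice carried that diet too. It sampled SAT (5 wild-type and 3 Azin2-/- libraries) and epigonadal adipose tissue, abbreviated GAT in the labels (4 wild-type and 4 Azin2-/- libraries). Azin2 encodes antizyme inhibitor 2, a regulator of polyamine metabolism. Ages are not given, and the labels name neither the deleted part of Azin2 nor any restriction of the deletion to a tissue. The labels do not say that the libraries of a group came from separate animals, so p-values measure the spread between these libraries only. Some SAT and GAT titles carry the same mark, and whether those libraries came from the same mice is not stated.

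Type I interferons bind the Ifnar1 and Ifnar2 receptor chains, and the Janus kinases then activate Stat2, which acts with Irf9 at interferon-stimulated response elements (ISREs) in promoters. Interferon-gamma uses another receptor and acts through gamma-activated sites (GAS). OAS, Mx, IFIT and Rsad2 genes are classical targets of the type I arm, and GBPs, immunity-related GTPases and Irf1 respond strongly to the gamma arm, with wide overlap between the arms. In adipose tissue, macrophages, other immune cells and adipocytes can all express these genes, and in a whole-tissue library a change in the number of cells of a type cannot be told apart from a change of RNA per cell.

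Levels are given as CPM (a gene's counts over its library's total in megareads) after scaling by the trimmed mean of M-values (TMM) over all 24 libraries (normalised CPM), and differences as log2 fold changes from edgeR's quasi-likelihood test with its standard error (SE). A gene was called higher or lower where its Benjamini-Hochberg adjusted p, over all genes tested, was under 0.05. Library totals lay between 31.96 and 46.62 megareads counted on genes. In mice labelled Azin2-/- the Azin2 level was 10.4 ± 1.85 normalised CPM in SAT (SD, n = 3) against 20.3 ± 4.49 in wild-type SAT (n = 5), and 14.7 ± 2.96 in GAT (n = 4) against 24.3 ± 1.32 in wild-type GAT (n = 4), so Azin2 counts were lower but well above 0 under the knockout label. Several libraries stood apart. SAT low-fat replicate 1 held 28506 CPM of 12 summed epididymis markers, against under 1 in the other SAT libraries, its adipocyte markers summed to 11285 CPM against 35607 to 39587 in the other low-fat libraries, and the subcutaneous marker Hoxc10 stood at 0.0415 normalised CPM. Against the same libraries its epigonadal markers summed to 102 CPM (5.55 to 7.6 in the others) and its subcutaneous markers to 77.3 CPM (236 to 255). Its T and NK cell markers summed to 226 CPM (15.2 to 33.9). This library was kept as labelled, and whether it is subcutaneous fat was not tested. GAT wild-type replicate 3 held 7487 CPM of the epididymis markers. In SAT, skeletal muscle markers made up 77041 CPM of Azin2-/- replicate 2, 69200 CPM of wild-type replicate 3, 25089 CPM of low-fat replicate 5 and 7250 CPM of high-fat replicate 6. The members' calls are given with and without these libraries where the calls change.

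Interferon acts through short promoter motifs, and the promoter windows of 7 members are printed because the results below turn on these genes or because they show the motif classes. RefSeq windows of 250 bases before an annotated start (build GRCm38.p6) were found for 30 of the 40 members, in 35 windows. The motifs were searched on both strands, the ISRE core GAAANNGAAA and the GAS motif TTCNNNGAA, where N is any base. The ISRE core was in 16 of the 30 members and in 45.7% of their windows, against 2.98% of all 32851 windows of that length. The GAS motif was in 7 members and in 20% of their windows, against 7.02% of all windows. 5 members held both motifs and 12 held neither. The motifs overlapped in the Bst2 window. No window was matched for Dhx58, Gbp4, Ifi27l2a, Mx1, Mx2, Oas2, Parp14, Rtp4, Usp18 and Zbp1. A match describes these letters in this window and does not show binding. Capitals mark the motif matches in the sequences below, each printed 5′ to 3′ in the direction of its gene. Oas1a (chr5:120907526-120907775 on the minus strand) held 2 overlapping ISRE cores beside its start and a GAS motif that begins 98 bases before it, Oas3 (chr5:120777660-120777909 on the minus strand) held an ISRE core that begins 75 bases before its start, and Oasl1 (chr5:114922990-114923239 on the plus strand) held neither motif. Rsad2 (chr12:26456453-26456702 on the minus strand) held an ISRE core on the opposite strand, 120 bases before its start. Igtp (chr11:58199306-58199555 on the plus strand) held a GAS motif and an ISRE core within the last 45 bases, Isg15 (chr4:156200819-156201068 on the minus strand) held 3 overlapping ISRE cores, and Irf1 (chr11:53769764-53770013 on the plus strand) held a GAS motif alone.
Oas1a: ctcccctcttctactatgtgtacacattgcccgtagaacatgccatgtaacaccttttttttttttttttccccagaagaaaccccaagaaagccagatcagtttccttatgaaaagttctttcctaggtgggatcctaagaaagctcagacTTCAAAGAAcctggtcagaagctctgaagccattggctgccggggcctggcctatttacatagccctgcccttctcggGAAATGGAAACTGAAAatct
Oas3: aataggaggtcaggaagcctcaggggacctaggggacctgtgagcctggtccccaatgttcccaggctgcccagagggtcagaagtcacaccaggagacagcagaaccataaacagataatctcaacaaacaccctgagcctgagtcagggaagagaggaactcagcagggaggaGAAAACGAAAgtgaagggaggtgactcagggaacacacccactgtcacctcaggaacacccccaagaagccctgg
Oasl1: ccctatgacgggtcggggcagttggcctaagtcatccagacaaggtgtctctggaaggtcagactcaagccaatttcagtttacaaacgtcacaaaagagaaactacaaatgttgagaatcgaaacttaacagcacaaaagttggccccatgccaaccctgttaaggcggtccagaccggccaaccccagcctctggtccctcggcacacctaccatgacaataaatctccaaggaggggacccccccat
Rsad2: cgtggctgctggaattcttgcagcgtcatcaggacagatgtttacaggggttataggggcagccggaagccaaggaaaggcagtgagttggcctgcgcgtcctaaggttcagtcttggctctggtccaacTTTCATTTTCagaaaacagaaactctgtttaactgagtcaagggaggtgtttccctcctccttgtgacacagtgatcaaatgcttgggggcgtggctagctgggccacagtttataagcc
Igtp: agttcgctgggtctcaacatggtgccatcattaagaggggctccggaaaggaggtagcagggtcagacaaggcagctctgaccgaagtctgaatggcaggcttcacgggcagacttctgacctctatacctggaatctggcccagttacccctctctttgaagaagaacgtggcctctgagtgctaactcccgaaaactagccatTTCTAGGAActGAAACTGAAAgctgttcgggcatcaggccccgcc
Isg15: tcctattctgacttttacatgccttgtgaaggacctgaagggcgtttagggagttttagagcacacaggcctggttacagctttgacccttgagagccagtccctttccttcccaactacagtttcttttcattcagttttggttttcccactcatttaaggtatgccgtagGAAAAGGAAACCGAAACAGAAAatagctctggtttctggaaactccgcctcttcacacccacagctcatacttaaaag
Irf1: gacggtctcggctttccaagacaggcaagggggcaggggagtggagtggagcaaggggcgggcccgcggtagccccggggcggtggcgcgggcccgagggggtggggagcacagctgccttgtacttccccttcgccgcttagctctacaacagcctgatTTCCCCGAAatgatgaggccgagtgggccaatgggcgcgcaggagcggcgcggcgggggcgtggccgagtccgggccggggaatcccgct

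Levels of the members spanned a wide range when divided by exon length. Over the 23 libraries other than SAT low-fat replicate 1, Ifi27l2a, a small interferon-induced membrane protein, had a mean of 1968 normalised CPM per kilobase of exon. The next in order were Bst2 (tetherin, which holds budding virus at the cell surface) at 50.2 normalised CPM per kilobase, Gbp2 at 36.7, Ifi35 at 21.9 and Irf1 at 18.1. The lowest were Oas3 at 0.261, Mx2 at 0.795, Ifi44 at 0.922, Mx1 at 0.974 and Herc6 at 1.25 normalised CPM per kilobase. Bst2, Gbp2 and Irf1 therefore stood far above the OAS and Mx genes in per-length level in these pads. The same 5 genes led in each group, except that Ifit3 stood in place of Irf1 in SAT Azin2-/-, and Oas3, Mx1, Mx2 and Ifi44 were among the lowest 5 in each group, joined by Herc6 or Oasl1. Counts stayed large enough to measure even for the lowest member, with 22 to 135 counts of Oas3 per library.

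The members did not share a spread. From the lowest to the highest of the 23 libraries, Irgm1 levels differed 1.42-fold, Ifih1 levels 1.57-fold and Ddx58 levels 1.65-fold, whereas Ifi27l2a levels differed 5.57-fold, Oas3 levels 4.64-fold, Mx1 levels 4.53-fold, Oasl1 levels 3.41-fold and Oas1a levels 3.39-fold. Ddx58 (RIG-I) and Ifih1 are cytosolic sensors of viral RNA, and the Mx proteins are dynamin-like GTPases that block viral replication. In the plot of levels by library, the highest Oas1a, Oas3 and Oasl1 values lie in the 20-week high-fat libraries and in 3 of the 4 GAT Azin2-/- libraries, whereas Ifi27l2a was highest in SAT wild-type replicate 5.

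**Figure D1:**
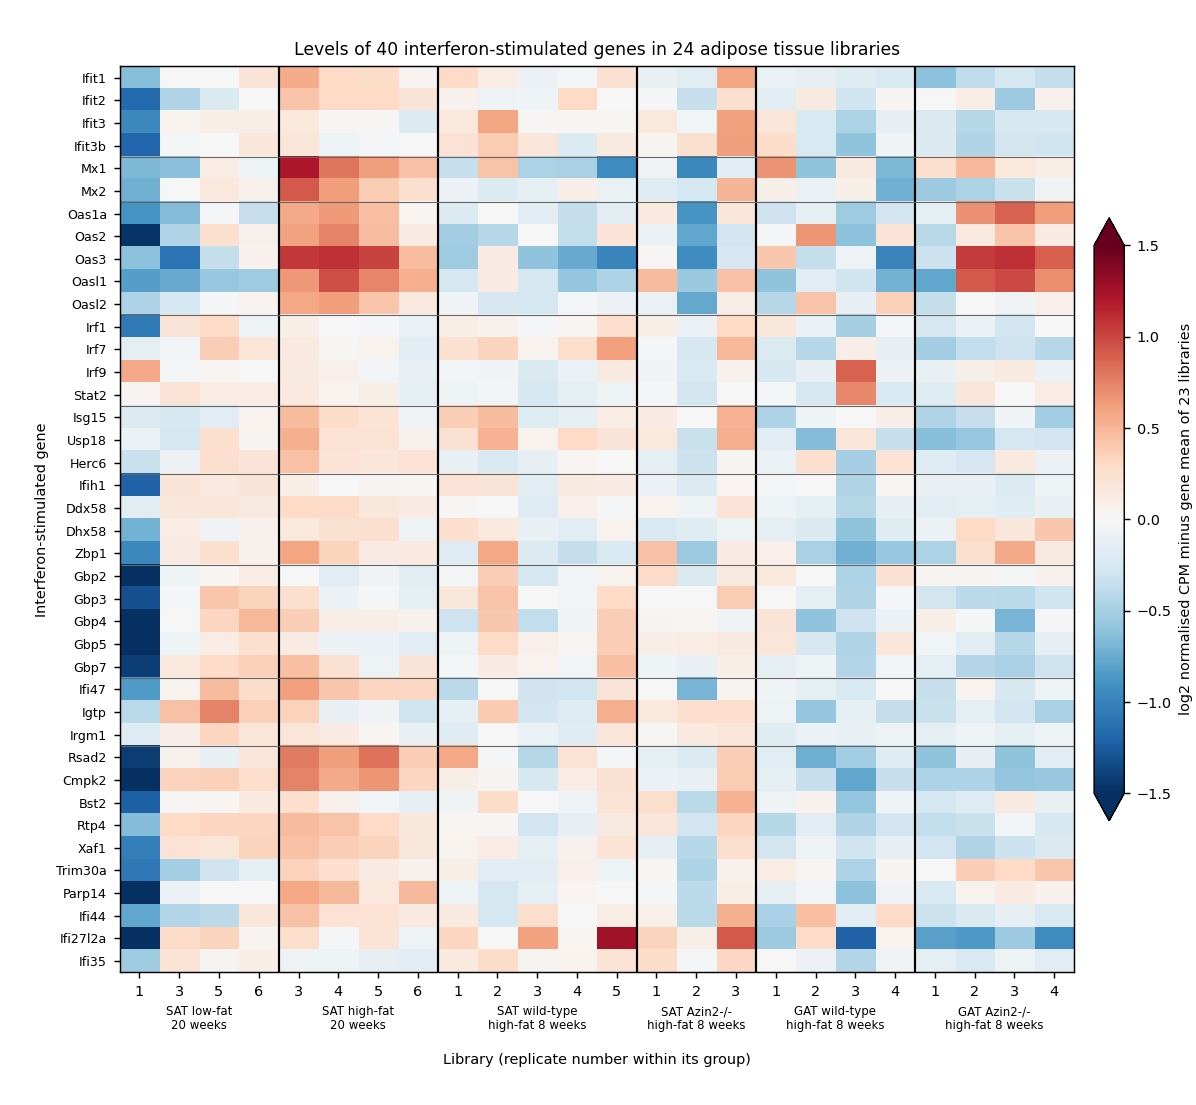
Levels of the 40 interferon-stimulated genes (rows, in order of role) in the 24 libraries (columns, by group and replicate number), as log2 normalised CPM minus the gene's mean over the 23 libraries other than SAT low-fat replicate 1. Red is above and blue below that mean; Mx1, Oas3 and Oasl1 are red in the 4 high-fat libraries of the diet experiment, and the mean log2 level of the members in SAT low-fat replicate 1 is the lowest of its group (3.50).

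Within a group, many members were high or low in the same library. Among the 4 high-fat libraries of the diet experiment, 33 of 40 members were highest in replicate 3 and 33 were lowest in replicate 6, where an equal share would be 10. Replicate 6 held 7250 CPM of skeletal muscle markers, the most of the 4 high-fat libraries. Among the 3 SAT Azin2-/- libraries, 33 members were highest in replicate 3 and 34 lowest in replicate 2, the library rich in muscle transcripts. SAT low-fat replicate 1 was lowest in its group for 36 members, with a mean log2 level over the 40 members of 3.50 against 4.35 to 4.52 in the other 3. GAT Azin2-/- replicate 1 had a mean log2 level of 4.14 against 4.33 to 4.34 in its group, and its summed level of 15 macrophage markers was also the lowest, 2188 CPM against 3346 to 4496. The part of muscle, epididymis or macrophage transcripts in these library differences was not tested.

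The diet experiment asked how a long high-fat diet changes SAT. After 20 weeks of high-fat diet 4 of 5 OAS genes, Mx1, Ifit2 and Trim30a were called higher. The other 33 members gave no call with all 8 libraries, among them Isg15, Usp18, Herc6, Ifit1, Ifit3, Rsad2, Cmpk2, the GBPs and the immunity-related GTPases, and no difference between roles was tested. Of the 40 members, 7 were called higher and 0 lower by edgeR. An unadjusted p under 0.05 was found for 12 members and for 6349 of the 17066 genes tested, the larger share being that of all genes. The share of all 17066 tested genes called was 21.2% in either direction, 10.8% higher and 10.4% lower, so 7 of 40 members (17.5%) higher and 0% lower compare with that background. In 10 members every high-fat library lay above every low-fat library and in 0 members the reverse held, where the shares of all genes were 18.6% and 13.9%. The median log2 fold change of the 40 members was 0.23, with 33 above 0, against -0.09 over all genes tested. The macrophage markers moved with these genes: 12 of 15 were called higher (all 15 passed the filter), and their sum was 1737 to 2181 CPM in the high-fat libraries against 448 to 704 CPM in the low-fat libraries. Of 9 markers of plasmacytoid dendritic cells, known as strong producers of interferon, 8 were tested and 0 called, with sums of 326 to 385 CPM against 220 to 305 CPM. Siglech, 1 of these markers, made up little of the sums and went the other way. Its mean was 1.01 normalised CPM on the high-fat and 1.71 on the low-fat diet (log2 fold change -0.83, adjusted p = 0.065). Without low-fat replicate 1, 13 macrophage markers were called higher, and adipocyte markers went from 0 higher and 3 lower to 3 higher and 7 lower. Plasmacytoid markers then had 3 of 8 tested higher and 1 lower, where 23.5% of all genes were called in each direction. Their median turned from -0.30 to 0.55. The lower marker was Siglech (-0.55, adjusted p = 0.0377). The part of these cell types in the members' differences was not tested.

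Oasl1, an OAS-like protein without known synthetase activity, had the smallest p of the members. Its levels were 2.06, 2.16, 2.46 and 2.51 normalised CPM in the 4 low-fat libraries and 5.71, 7.14, 6.05 and 5.31 in the 4 high-fat libraries. Every high-fat library lay above every low-fat library, with no overlap. The log2 fold change was 1.35 (SE 0.15, adjusted p = 0.00156), a 2.55-fold difference, and it kept its call under all 14 alternatives.

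Oas3, a large oligoadenylate synthetase that makes the activator of RNase L, stood at 1.06, 0.749, 1.26 and 1.69 normalised CPM on the low-fat diet and at 3.37, 3.47, 3.27 and 2.24 on the high-fat diet. The groups did not overlap, and high-fat replicate 6 was the lowest of its group by a wide gap. The log2 fold change was 1.33 (SE 0.29, adjusted p = 0.0159). Oas1a, another synthetase, had 4.13, 4.91, 7.54 and 6.06 normalised CPM on the low-fat diet and 11.4, 12, 10.5 and 7.88 on the high-fat diet. These groups also stayed apart, though high-fat replicate 6 came close to low-fat replicate 5, and the log2 fold change was 0.84 (SE 0.20, adjusted p = 0.0224). Oas1a shares 57.6% of its exonic 50-base stretches with other genes, chiefly Oas1g, a near-identical neighbour on chromosome 5, so reads from those stretches may be missing from its counts or misplaced. Oasl2 rose as well, with an estimate of 0.58 (SE 0.13, adjusted p = 0.0209), from a mean of 24.1 to 37.0 normalised CPM. Oas2 had a log2 fold change of 0.74 that missed the threshold (adjusted p = 0.132), so 4 of the 5 OAS genes were called and all 5 estimates were above 0.

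**Figure D2:**
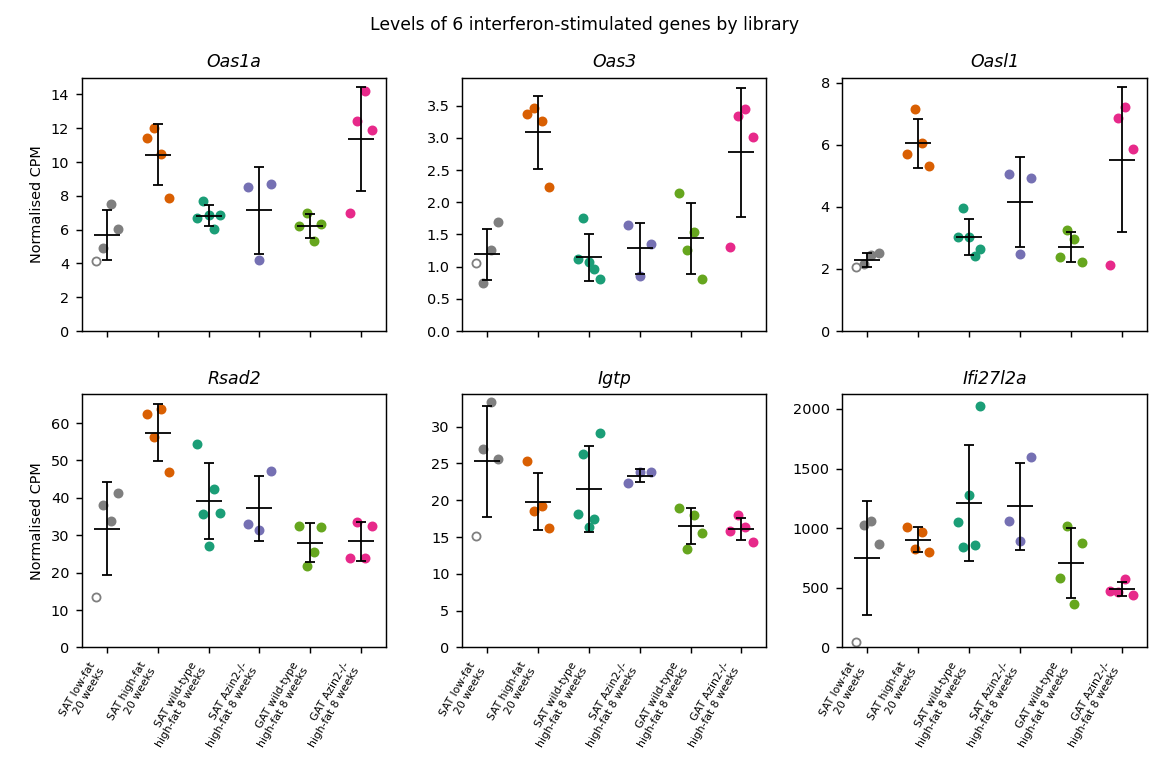
Normalised CPM of 6 members in each library (points), by group, with the group mean and SD (black bar); the open point is SAT low-fat replicate 1. The high-fat points of Oas3 and Oasl1 in the diet experiment lie above all low-fat points, from 2.24 and 5.31 normalised CPM upward, and Ifi27l2a is lower in GAT Azin2-/- (mean 489) than in SAT Azin2-/- (mean 1183).

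Mx1 rose from 2.14, 2.22, 3.69 and 3.25 to 7.89, 5.97, 5.29 and 4.64 normalised CPM, a difference of 1.04 on the log2 scale (SE 0.24, adjusted p = 0.0214). High-fat replicate 3 was the highest and no library crossed over. Many laboratory strains of mice carry a defective Mx1 allele. Mx2 had an estimate of 0.61 with groups that did not overlap, and missed the threshold (adjusted p = 0.0955). Of the IFIT genes, which bind viral RNA and hold back its translation, Ifit2 was called higher (log2 fold change 0.67, SE 0.20, adjusted p = 0.049). Its levels were 10.2, 16.8, 19.8 and 23 normalised CPM on the low-fat diet and 30.9, 28.1, 28.3 and 26.2 on the high-fat diet, so again no library crossed over. Ifit3 had a log2 fold change of 0.09 (adjusted p = 0.753), and it shares 51.2% of its exonic 50-base stretches with Ifit3b.

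Among the other effectors, Trim30a, a TRIM protein that restrains Toll-like receptor signalling, rose from a mean of 25.8 to 40.9 normalised CPM (log2 fold change 0.63, SE 0.16, adjusted p = 0.0298). Rsad2 (viperin, an enzyme that makes a chain-terminating nucleotide) was at 13.6, 38.2, 33.8 and 41.4 normalised CPM on the low-fat diet and at 62.5, 56.3, 63.9 and 47 on the high-fat diet. Its groups did not overlap, but low-fat replicate 1 lay far under the other 3 low-fat libraries, and with all 8 libraries the log2 fold change of 0.83 missed the threshold (adjusted p = 0.0776). Parp14 missed it in the same way (0.71, adjusted p = 0.126). Bst2 had an estimate of 0.19 (adjusted p = 0.595), and Isg15, a ubiquitin-like modifier of other proteins, had an estimate of 0.32 (adjusted p = 0.156).

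The transcription factors and the sensors gave no call. Irf7, the amplifier of the type I arm, had a log2 fold change of -0.13 (adjusted p = 0.407), and Irf1 one of 0.04 (adjusted p = 0.897). The 4 estimates of the factors ran from -0.20 to 0.04, and those of the 4 sensors from 0.08 to 0.34, with Ifih1 at 0.08 (adjusted p = 0.83). Gbp2, a GTPase that attacks the membranes of intracellular pathogens, had an estimate of 0.15 (adjusted p = 0.766), and Igtp, an immunity-related GTPase, one of -0.38 (adjusted p = 0.238). A missed threshold does not show that these genes stayed level.

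Without low-fat replicate 1, the 7 remaining libraries gave 9 members higher and 2 lower, on a background of 47% of 17268 genes called, 23.5% in each direction. The 7 genes called with all 8 libraries were called again, with Rsad2 (log2 fold change 0.60, SE 0.12, adjusted p = 0.00379) and Parp14 (0.47, SE 0.10, adjusted p = 0.00527) besides. Oasl1 had 1.34 (adjusted p = 0.000191), Oas3 1.32 (adjusted p = 0.0063), Mx1 0.96 (adjusted p = 0.00964) and Oas1a 0.76 (adjusted p = 0.00921). Ifi35, a leucine-zipper protein that partners with Nmi, fell by 0.23 on the log2 scale (adjusted p = 0.0153), and Igtp fell by 0.53 (adjusted p = 0.0244). The members' median was then 0.09 with 24 of 40 above 0, against -0.02 over all genes. Ranges did not overlap for 10 members above and 3 below, on backgrounds of 25.7% and 26.7%, and the 22.5% of members called higher sit beside a background of 23.5%.

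The 9 genes called higher and Ifi35 kept their calls under all 10 alternatives run on the 7 libraries, and Igtp lost its call under 5 of them. With all 8 libraries the calls were less firm: Oasl1 alone was called without high-fat replicate 3 or without high-fat replicate 4, Oas3 and Oasl1 without low-fat replicate 3, and Mx1, Oas3 and Oasl1 without high-fat replicate 5. Low-fat replicate 5 and high-fat replicate 6 held muscle transcripts. Without either of them Mx1, Oas1a, Oas3, Oasl1 and Oasl2 were called, and Ifit2 and Trim30a lost their calls. In these fits 8.38% and 7.12% of all genes were called higher. Without low-fat replicate 1, all 5 GBP estimates were below 0 (-0.25 to -0.06) and none was called, so the OAS and GBP groups took opposite signs, a difference between groups that was not tested. Igtp, called lower in this fit, is an immunity-related GTPase and not a GBP, and the estimates of its role ran from -0.53 to 0.14. Igtp levels were 27, 33.4 and 25.6 normalised CPM in low-fat replicates 3, 5 and 6 against 25.3, 18.5, 19.2 and 16.2 on the high-fat diet. The highest high-fat library came to just under the lowest of those 3 low-fat libraries.

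**Figure D3:**
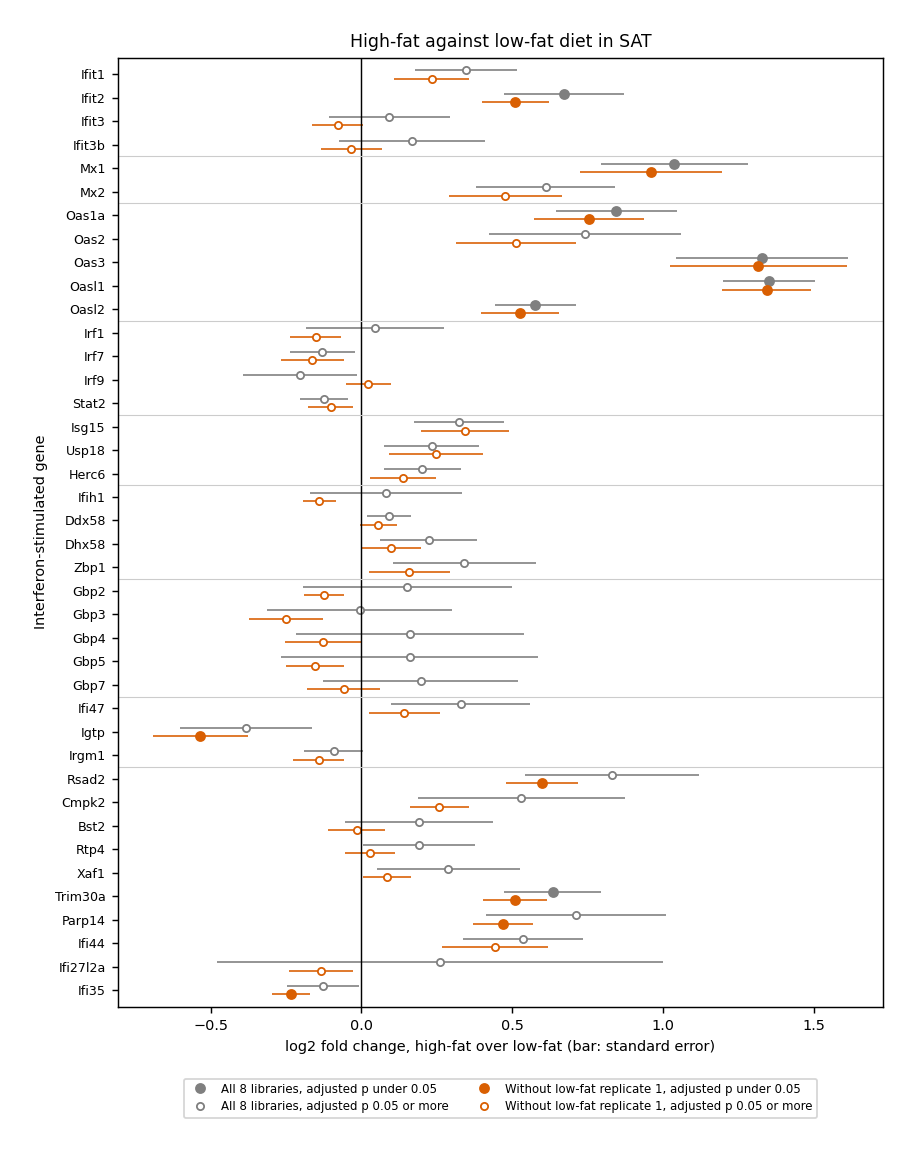
Log2 fold change of each member, high-fat over low-fat in SAT (points, with SE as bars), with all 8 libraries (grey) and without low-fat replicate 1 (orange); filled points have an adjusted p under 0.05. The OAS estimates lie to the right of 0 in both fits (0.58 to 1.35 with all 8 libraries), and the GBP estimates move from 4 of 5 above 0 to 5 of 5 below 0.

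The motif classes of the called genes varied. Of the 7 members called higher with all 8 libraries, 6 had a promoter window, of which 3 held the ISRE core (Oas1a, Oas3 and Trim30a) and 2 the GAS motif (Oas1a and Ifit2), and the Oasl1 and Oasl2 windows held neither. Of the 33 other members, 24 had a window, with the ISRE core in 13 and the GAS motif in 5. In the printed sequences Igtp and Isg15 carry ISRE cores as Oas3 and Rsad2 do, but had estimates of -0.38 and 0.32.

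Of 20 interferon genes in the tables, 14 had 0 counts in all 24 libraries, which allows up to 3 counts per library, and the 20 together had 0 to 15 counts per library with a median of 5. Ifng, encoding interferon-gamma, made up 126 of the 144 counts, and Ifnb1 had 1. A single interferon gene passed the low-count filter for the diet; its estimate was 0.09 (-0.26 without low-fat replicate 1) and it was not called. The others were too low to test. Of 14 genes for receptors and signalling, 5 were called higher on the high-fat diet and 0 lower: Jak1 (log2 fold change 0.47), Il10rb (0.39), Ifnar1 (0.48), Ptpn6 (1.10) and Jak2 (0.21). Of 16 upstream sensors and adaptors, 9 were called higher and 1 lower, led by Tlr7, an endosomal receptor for viral RNA (2.29, SE 0.17, adjusted p = 0.000659), Irf8 (1.40), Irf5 (1.62), Ikbke (0.77) and Aim2 (1.44), with Irf3 lower (-0.39, adjusted p = 0.00971). Of 60 other interferon-induced genes tested, 9 were called higher and 1 lower, among them Slfn2 (adjusted p = 0.00243), Ifi207 (1.45), Slfn9 (1.44), Epsti1 (1.19) and Nmi (-0.43). Tlr7, Irf5 and Irf8 are also expressed by macrophages, B cells or dendritic cells, and 6 of 12 B cell markers were called higher as well. These counts stand beside the 10.8% of all genes called higher and 10.4% lower. Without low-fat replicate 1, where 23.5% of all genes were called in each direction, the receptor and signalling list had 8 higher and 1 lower, the upstream list 12 higher and 2 lower, the other interferon-induced genes 23 higher and 10 lower, and 10 B cell markers were higher. Ifngr2, a chain of the receptor for interferon-gamma, then moved from -0.02 to 0.52 and was called, and Ifngr1, its partner, was called lower (-0.33).

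In the SAT of Azin2-/- mice the members showed no call. edgeR called 0 of 40 in either direction, and DESeq2 and limma-voom also called 0. An unadjusted p under 0.05 was found by edgeR for 0 members and for 1745 of all 16948 genes. By limma-voom it was found for 6 members and for 3477 genes. The background of edgeR calls was 0.0059%, 1 gene of 16948. In 0 members did the groups lie apart, where 3.46% of all genes lay apart above and 3.8% below. The members' median log2 fold change was -0.01, with 20 above 0 and 20 below, against 0.01 over all genes. This even split depended on the libraries and the method. Without the muscle-rich libraries 31 members were above 0 (median 0.10), and by limma-voom 36 (median 0.12). Of all genes 48.3% and 48.9% were above 0 there. Leaving out 1 library gave from 7 members above 0 (without Azin2-/- replicate 3) to 34 (without Azin2-/- replicate 2). The macrophage markers had 0 of 15 called, and summed to 663 to 1345 CPM in Azin2-/- and 661 to 1295 CPM in wild-type libraries.

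The smallest p belonged to Ifih1 (log2 fold change -0.20, SE 0.10, adjusted p = 0.535), and the largest estimate to Oasl1 (0.45, SE 0.27, adjusted p = 0.587). Oasl1 stood at 5.05, 2.48 and 4.94 normalised CPM in the 3 Azin2-/- libraries and at 3.02, 3.96, 3.04, 2.43 and 2.65 in the 5 wild-type libraries. The low Azin2-/- value is replicate 2, the library rich in muscle transcripts. Without it and wild-type replicate 3 the Oasl1 estimate was 0.73 (adjusted p = 0.248), and still 0 members were called. Values for the other genes followed throughout were 0.08 for Ifit3, -0.09 for Oasl2, -0.07 for Mx1, -0.21 for Irf7, 0.01 for Irf1, 0.07 for Isg15, 0.05 for Gbp2, 0.11 for Igtp and 0.09 for Bst2, each with an adjusted p of 0.714 or more. The SEs of the members ran from 0.09 to 0.34.

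In GAT, 1 member was called higher in Azin2-/- mice, Oas1a, and 0 lower. The background was 6.77% of 16778 genes, 5.45% higher and 1.32% lower. An unadjusted p under 0.05 was found for 8 members and for 4819 genes, the larger share being that of all genes. The members' median was -0.06, with 14 above 0 and 26 below, against -0.04 over all genes. Macrophage markers were far higher in the same libraries: 11 of 15 were called higher, and they summed to 2188 to 4496 CPM in Azin2-/- against 1237 to 1840 CPM in wild-type GAT. Of 12 B cell markers 4 were called lower, with a median of -1.20, and their sums were 727 to 918 CPM against 804 to 1150 CPM. The part of macrophage or B cell number in the Oas1a difference was not tested.

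Oas1a stood at 6.22, 6.98, 5.31 and 6.33 normalised CPM in wild-type GAT and at 7, 12.4, 14.2 and 11.9 in Azin2-/- GAT. The groups did not overlap, but Azin2-/- replicate 1 lay level with the highest wild-type library, and the other 3 stood well above. The log2 fold change was 0.85 (SE 0.20, adjusted p = 0.046), and it kept its call under 6 of 14 alternatives, with adjusted p from 0.00184 to 0.15. Without wild-type replicate 3, the library with epididymis transcripts, it had 0.80 (adjusted p = 0.0583). The limit of shared sequence with Oas1g applies here too.

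Oasl1 and Oas3 were also low in Azin2-/- replicate 1 and high in the other 3. Oasl1 levels were 2.4, 3.26, 2.95 and 2.22 normalised CPM in wild-type and 2.12, 6.86, 7.23 and 5.88 in Azin2-/- GAT, where the log2 fold change was 1.00 (SE 0.35, adjusted p = 0.112). Oas3 levels were 2.14, 1.26, 1.54 and 0.816 in wild-type and 1.3, 3.34, 3.45 and 3.02 in Azin2-/- GAT (0.92, SE 0.38, adjusted p = 0.155). In both genes replicates 2, 3 and 4 of Azin2-/- were above every wild-type library. Replicate 1 lay below all 4 wild-type libraries for Oasl1 and within their range for Oas3. Dhx58, a helicase that tunes RNA sensing, had 9.89, 12.9, 11.8 and 13.9 normalised CPM in Azin2-/- libraries, all above the wild-type range of 6.88 to 9.56, with an estimate of 0.47 (SE 0.14, adjusted p = 0.0753).

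Leaving out Azin2-/- replicate 1 gave 4 members higher, where 10.3% of all genes were called higher, a share that the 4 of 40 do not exceed: Oas1a (1.02, adjusted p = 0.00285), Oasl1 (1.27, adjusted p = 0.00519), Dhx58 (0.55, adjusted p = 0.0315) and Oas3 (1.15, adjusted p = 0.045). Leaving out any other GAT library gave 0 members higher. Without wild-type replicate 3, Gbp3 (-0.30, adjusted p = 0.048) and Ifi27l2a (-0.76) were called lower, where 2.69% of all genes were called lower. Replicate 1 of Azin2-/- also held the fewest macrophage markers of its group and the highest Azin2 level, 19 normalised CPM.

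The other OAS genes did not share this pattern. Oasl2 had an estimate of -0.19 (adjusted p = 0.539) and Oas2 one of -0.05 (adjusted p = 0.915). Ifit1 lay lower in all 4 Azin2-/- libraries (7.8, 9.15, 9.92 and 9.31 normalised CPM) than in the 4 wild-type libraries (11.1, 10.9, 10.5 and 10.2), with an estimate of -0.26 that missed the threshold (adjusted p = 0.134). Ranges without overlap were thus seen for 2 members above and 1 below, on a background of 8.49% of genes above and 5.91% below. Estimates for the other genes followed throughout were -0.15 for Ifit3, 0.24 for Mx1, -0.27 for Irf7, -0.08 for Irf1, -0.26 for Isg15, -0.04 for Ifih1, 0.01 for Gbp2, -0.05 for Igtp and 0.03 for Bst2, with adjusted p of 0.165 or more.

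**Figure D4:**
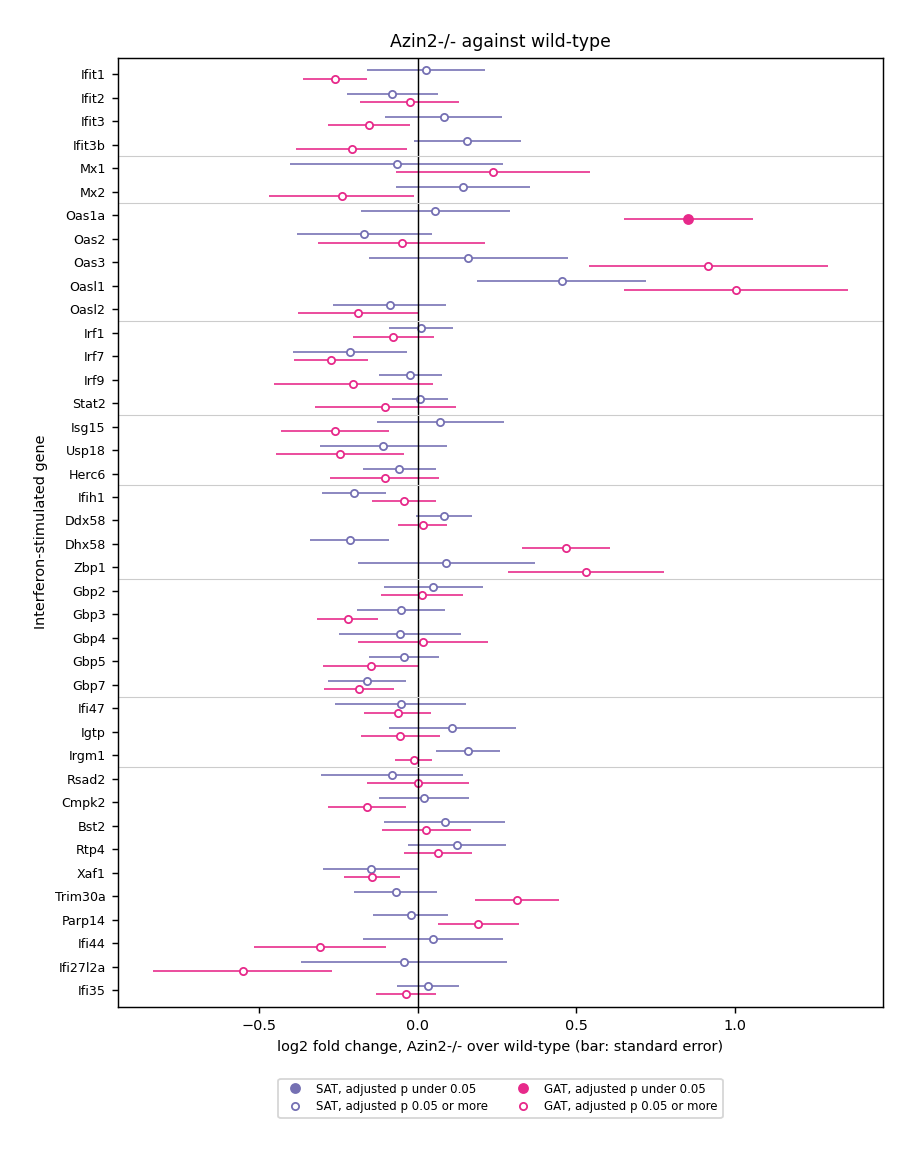
Log2 fold change of each member, Azin2-/- over wild-type after 8 weeks of high-fat diet (points, with SE as bars), in SAT (purple) and GAT (pink); filled points have an adjusted p under 0.05. Oas1a in GAT (0.85) is the filled point, and Oasl1 in GAT (1.00) lies furthest to the right.

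The wider pathway lists in GAT are read beside the 5.45% of all genes called higher and 1.32% called lower. All calls over all genes ended, or fell to 1, when wild-type replicate 2 or 4 or Azin2-/- replicate 2, 3 or 4 was left out. Ifngr2 (log2 fold change 0.63, adjusted p = 0.0409) and Ifnar1 (0.32, adjusted p = 0.0465) were called higher among 14 receptor and signalling genes. Of 16 upstream sensors and adaptors 5 were called higher and 0 lower: Tlr7 (1.45), Aim2 (1.08), Ikbke (1.08), Irf5 (1.24) and Irf8 (1.05). Of 60 other interferon-induced genes 4 were called higher, Ifi207 (1.15), Ifi30 (1.31), Slfn9 (1.11) and Slfn2 (adjusted p = 0.0413), and Ifitm1 was called lower (-0.82, adjusted p = 0.0408). In SAT 0 genes of these 3 lists were called.

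Whether the genotype effect differed between the depots was tested as an interaction in a fit of the 4 groups. edgeR called 0 of 40 members and 0 of 18033 genes (a background of 0%). An unadjusted p under 0.05 was found for 2 members and for 2016 genes, the larger share being that of all genes. The 2 members were Dhx58 (difference of log2 fold changes 0.68, SE 0.19, adjusted p = 0.312) and Oas1a (0.80, SE 0.33, adjusted p = 0.403). DESeq2 called 1 member higher, Dhx58, where it called 0.632% of all genes higher. By limma-voom Dhx58 was higher and Ifi27l2a and Ifi44 lower, where 8.42% of all genes were higher and 6.65% lower. The members' share of limma-voom calls did not exceed that of all genes. The values followed throughout lay between -0.33 (Isg15) and 0.31 (Mx1), with Ifit3 at -0.23, Oasl2 at -0.10, Irf7 at -0.06, Irf1 at -0.09, Ifih1 at 0.16, Gbp2 at -0.04, Igtp at -0.16 and Bst2 at -0.06. A difference between SAT and GAT in the response to Azin2 loss was therefore not shown for any member by edgeR.

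GAT and SAT were compared within each genotype. These comparisons use the same libraries as the genotype comparisons, so their results are not separate evidence. In wild-type mice edgeR called 0 members, against a background of 4.33% of 17030 genes, 2.47% higher and 1.87% lower. An unadjusted p under 0.05 was found for 11 members, all lower in GAT, and for 3735 genes in either direction, the larger share being that of the members. DESeq2 called 2 lower (Cmpk2 and Irf7), where it called 4.42% of all genes lower. By limma-voom 6 were lower and 1 higher (Oas2), where 6.33% of all genes were lower and 8.08% higher. The median of the members was -0.20, with 31 of 40 below 0, against -0.01 over all genes.

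Irf7 had the smallest p in wild-type mice, with levels of 25, 21.4, 30.7 and 26.4 normalised CPM in GAT and 33.8, 36.3, 29.9, 34.6 and 44.2 in SAT. The estimate was -0.46 (SE 0.14, adjusted p = 0.0959), with GAT replicate 3 reaching into the SAT range, and without that library Irf7 was called lower (-0.56, adjusted p = 0.0407). Cmpk2, a mitochondrial nucleotide kinase next to Rsad2 on chromosome 12, had -0.42 (adjusted p = 0.11). Ifi35, Ifit1 and Gbp7 lay lower in every GAT library than in any SAT library (3 members, on a background of 5.67% of genes, with 0 members above against 4.82%), with estimates of -0.27, -0.26 and -0.28. Ifit3 had -0.32, Oasl2 0.24, Mx1 0.29, Irf1 -0.17, Isg15 -0.23, Ifih1 -0.19, Gbp2 -0.02, Igtp -0.37 and Bst2 -0.22, each with an adjusted p of 0.273 or more.

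In Azin2-/- mice 5 members were called lower in GAT and 0 higher, on a background of 15.2% of 16800 genes, 9.13% higher and 6.04% lower. The 12.5% of members called lower compare with that 6.04%. An unadjusted p under 0.05 was found for 20 members (16 lower and 4 higher) and for 5800 genes, the larger share being that of the members. The median of the members was -0.23, with 26 of 40 below 0, against -0.03 over all genes. Macrophage markers went the other way, with 13 of 15 called higher in GAT and sums of 2188 to 4496 CPM in GAT against 663 to 1345 CPM in SAT. Adipocyte markers had 5 of 12 called lower, and the part of either cell type in the members' differences was not tested.

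Ifi27l2a had the largest fall, with 1060, 895 and 1595 normalised CPM in the 3 SAT libraries and 477, 465, 575 and 439 in the 4 GAT libraries. All 4 GAT libraries lay well under every SAT library, and the log2 fold change was -1.28 (SE 0.21, adjusted p = 0.0181). In wild-type mice the values of Ifi27l2a ranged from 838 to 2023 in SAT and from 363 to 1019 in GAT, with an estimate of -0.77 (adjusted p = 0.234). Igtp levels were 22.3, 23.8 and 23.9 in SAT and 15.8, 18, 16.4 and 14.3 in GAT of Azin2-/- mice, with no overlap (-0.54, SE 0.10, adjusted p = 0.0203).

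Cmpk2 fell by 0.60 (SE 0.13, adjusted p = 0.0281), Gbp3 by 0.48 (SE 0.11, adjusted p = 0.0288) and Ifit3b by 0.64 (SE 0.15, adjusted p = 0.0356) on the log2 scale. Ifit3, which shares exonic stretches with Ifit3b, had -0.55 (adjusted p = 0.0508). In all, 14 members lay lower in every GAT library than in any SAT library and 1 higher (Mx1), on backgrounds of 15.9% and 15.3% of genes. All 5 OAS estimates were above 0 in this comparison (0.14 to 1.09, none called by edgeR, while DESeq2, limma-voom and the edgeR fit without GAT replicate 1 called Oas3 higher), and all 5 GBP and all 4 IFIT estimates were below 0, a contrast between roles that was not tested. Values for the other genes followed throughout were 0.14 for Oasl2, 0.59 for Mx1, -0.52 for Irf7, -0.26 for Irf1, -0.56 for Isg15, -0.04 for Ifih1, -0.06 for Gbp2 and -0.28 for Bst2, with adjusted p of 0.0732 or more.

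The calls in Azin2-/- mice depended on single libraries. No member was called lower without GAT replicate 2, 3 or 4 or without SAT replicate 3, settings in which 0.217%, 1.67%, 1.31% and 0.233% of all genes were called in either direction. Without SAT replicate 2, the library rich in muscle transcripts, 12 members and 7.46% of all genes were called lower, and there Ifi27l2a had -1.44 (adjusted p = 0.0131). With the mark in the titles as a block, 0 members were called, and 1.19% of all genes were called lower. With all 24 libraries in 1 fit, 3 members were called lower and they were different genes, Ifit1, Irf7 and Isg15. In that fit 7.22% of all genes were called lower, a share close to that of the members.

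**Figure D5:**
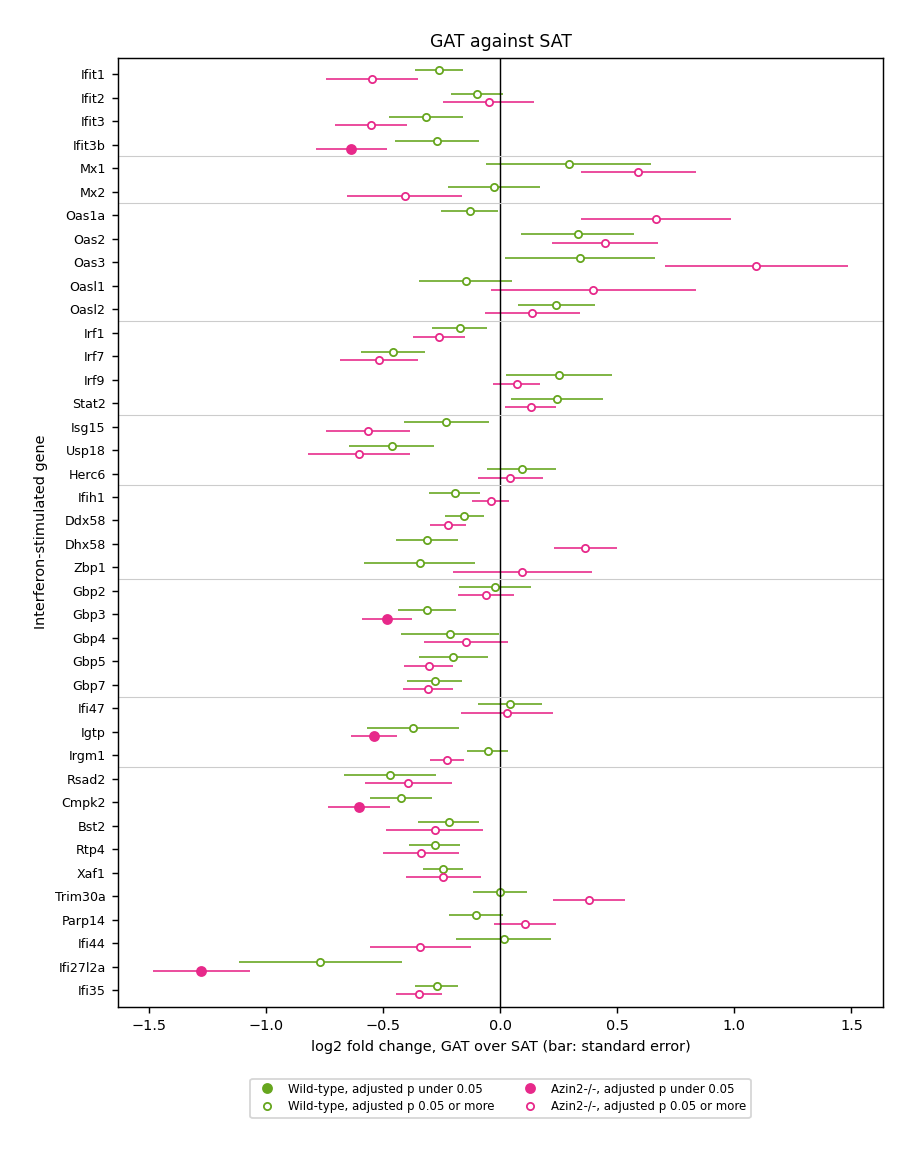
Log2 fold change of each member, GAT over SAT after 8 weeks of high-fat diet (points, with SE as bars), in wild-type (green) and Azin2-/- mice (pink); filled points have an adjusted p under 0.05. Most points lie left of 0 (31 of 40 in wild-type and 26 of 40 in Azin2-/-), and Ifi27l2a in Azin2-/- (-1.28) lies furthest to the left.

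Around the members, the pathway in GAT of Azin2-/- mice showed 4 of 14 receptor and signalling genes called higher (Pias1, 0.40; Ptpn6, 1.95; Tyk2, 0.50; Il10rb, 0.53) and 5 of 16 upstream sensors and adaptors (Aim2, 1.69; Tlr7, 1.89; Tlr9, 1.54; Irf5, 1.70; Ikbke, 1.36), where 9.13% of all genes were called higher and 6.04% lower. Of 60 other interferon-induced genes 7 were called higher, with Ciita, the master regulator of class II antigen presentation, at 1.63, and 4 lower, with the chemokine Cxcl9 at -1.06 (adjusted p = 0.0195) and the GTPase Irgm2 at -0.37 (adjusted p = 0.0275), counts close to those shares of all genes. Irgm2 and Igtp overlap on chromosome 11, where 11.8% of the 50-base stretches of Igtp are shared. In wild-type mice 1 upstream gene (Ikbke, 0.57) and 1 other interferon-induced gene (Ifitm1, 0.88) were called higher in GAT and 0 of these 3 lists lower.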

How the data were processed

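Per the labels' protocols, RNA of whole fat pads was extracted with NucleoSpin columns and made into TruSeq stranded total RNA libraries. The deposited values are the authors' raw read counts per Ensembl gene, with a separate table for each library. The tools listed in the submitters' processing notes are HTSeq 0.6.1p1, STAR and cutadapt, and the mouse build is GRCm38 (mm10). The counting annotation and strand setting: not given in the sources used. Of 49585 identifiers 49326 were matched to GENCODE release 21, and the other 259 held 0.0103% of counts. Library totals were 31.96 to 46.62 megareads, and intervals from such totals cover counting error only.

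Counts were filtered with edgeR 4.0.16 (filterByExpr, minimum count 10 and minimum total 15), scaled by TMM and tested with the robust quasi-likelihood F test within the groups compared, in R 4.3.3, with Benjamini-Hochberg adjustment over all genes tested. The SE is the size of the log2 fold change divided by the square root of F. The interaction was fitted over 4 groups. Library means are of log2(normalised CPM + 0.5). The scripts were tested on simulated counts. DESeq2 1.42.0, limma 3.58.1 (voom with sample quality weights), DESeq2 size factors, no filter, a fit of all 24 libraries, a block on the number or mark in the titles, and leaving out each library or the muscle-rich libraries were alternatives. The diet comparison without low-fat replicate 1, with its own alternatives, was chosen after seeing the data.

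The 40 members, the pathway lists and the marker lists were chosen with earlier results of these data known. Named in every comparison were Ifit3, Oasl2, Mx1, Irf7, Irf1, Isg15, Ifih1, Gbp2, Igtp and Bst2, besides every member called, up to 6 genes of smallest p per pathway list, and the 5 highest and 5 lowest members per exon length; other members were named after their values were seen. Replicate numbers are those of the titles in the diet groups and follow accession order elsewhere. Same-marked libraries deviated together most in the genotype comparison of SAT, where both groups hold a muscle-rich library of 1 mark. Such deviations cannot decide whether libraries are pairs. Libraries were not treated as pairs because the labels do not say what the marks stand for.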

Additional observations from a re-analysis of the deposited data

Results flagged for a closer look

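In groups of 4 or 5 libraries, the values below stood further from the rest of their group than Dixon's 95% limit allows. Chance alone passes that limit in about 1 in 20 groups, and 200 groups of member values and 5 groups of library means were examined.

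The mean log2 level of the 40 members was 3.50 in SAT low-fat replicate 1 and 4.14 in GAT Azin2-/- replicate 1, each far below its group. In SAT low-fat replicate 1, 9 members stood apart on the low side, in normalised CPM: Ifit3 at 14.5, Ifih1 at 15, Ddx58 at 37.4, Gbp2 at 25.1, Cmpk2 at 7.31, Bst2 at 19.2, Rtp4 at 9.8, Xaf1 at 11.3 and Parp14 at 22.9. Irf9, a DNA-binding partner of Stat2, stood apart there on the high side, at 54.1 normalised CPM. It was also high in GAT wild-type replicate 3, at 67.4, where Ifih1 (25.4) and Trim30a (25.8) were low. These are the 2 libraries with epididymis transcripts, whose part in the values was not tested.

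In the high-fat group of the diet experiment, Oas3 was low in replicate 6 (2.24 normalised CPM), and Herc6 (15.6) and Gbp4 (62.9) were high in replicate 3. In wild-type SAT, Ifit3 (42.8) and Zbp1 (10.4) were high in replicate 2, and Ifih1 was low in replicate 3 (31.1). Ifit3 was low in GAT Azin2-/- replicate 2 (21.1).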

How the results depend on the processing

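No called value changed direction under the alternatives run, while estimates that were not called could, as the GBPs did for the diet. The cause of the shifts below was not tested. For the diet, members called lower numbered 2 by limma-voom and 1 with the replicate block, and genes called 7985 by limma-voom, 2335 without the filter, 6056 with all 24 libraries and 5867 with the block. Leaving out 1 library gave 1 to 9 members higher, 0 to 2 lower and 1802 to 8109 genes. Without low-fat replicate 1, limma-voom gave 1 member lower, and leaving out a further library 9 to 14 higher and 1 to 3 lower. For Azin2-/- in SAT, DESeq2 called 338 genes, limma-voom 295, the fit of 24 libraries 13, the block 0, the fit without muscle-rich libraries 8, and the fits leaving out 1 library 0 to 4. In GAT, members higher numbered 3 by DESeq2, 6 by limma-voom, 0 without the filter and 2 with 24 libraries. They numbered 3 with the block and 0 to 4 leaving out 1 library. Members lower numbered 3 by limma-voom and 0 to 2 leaving out 1. DESeq2 called 11.1% of all genes higher, and limma-voom 19.9% higher and 18.6% lower. Genes called numbered 3079 by DESeq2, 6454 by limma-voom, 0 without the filter, 1716 with the block and 0 to 2672 leaving out 1. Without GAT wild-type replicate 2 or 4, or Azin2-/- replicate 3 or 4, 0 genes were called, and without Azin2-/- replicate 2 it was 1.

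For GAT against SAT in wild-type mice, members lower numbered 2 by DESeq2, 6 by limma-voom and 0 to 1 leaving out 1 library, members higher 1 by limma-voom, and genes called 1784 by DESeq2, 2454 by limma-voom, 490 without the filter, 0 with the block and 296 to 909 leaving out 1. In Azin2-/- mice, members higher numbered 2 by DESeq2, 3 by limma-voom and 0 to 2 leaving out 1. Members lower numbered 10 by DESeq2, 22 by limma-voom, 3 with 24 libraries and 0 with the block. They numbered 12 without the muscle-rich library and 0 to 12 leaving out 1. DESeq2 called 14.3% of all genes higher and 11.8% lower, and limma-voom 20.3% higher and 19.2% lower. Genes called numbered 4387 by DESeq2, 6631 by limma-voom, 1099 with the block and 36 to 3414 leaving out 1. The interaction gave 1 member higher by DESeq2 and by limma-voom and 2 lower by limma-voom, with 158 and 2718 genes, and 0 to 107 leaving out 1.

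The block used the title's number or mark. Same-marked libraries correlated from -0.27 to 0.8 in their deviations, with at least 1 value under 0.1 in each comparison except the genotype comparison in SAT. Between diets or genotypes the same mark cannot mean the same mouse, and between depots a low correlation does not show different mice. The numbers and marks were not taken as pairs because the labels do not say what they stand for. Members with low counts, such as Oas3 with 22 counts in its lowest library, limit what depth can show.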
